A study of Mus musculus with 36 samples.

Results

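The ubiquitin-conjugating enzymes, or E2 enzymes, were followed through cycles of Akt1 induction and repression in the mouse heart. Members were all genes on chips 430A and 430B with a probe set whose only platform symbol starts with Ube2 and whose mean signal over the chip's 18 arrays was at least 20% of the chip's 2% trimmed mean. The chips held 33 such symbols on 84 probe sets, and 30 genes with 73 probe sets passed, of 14650 genes that passed in the whole series. Just inside the threshold lay Ube2u, at 30.2% of the trimmed mean, and Ube2c, at 42.1%. The 3 symbols under it were Ube2cbp (14.3%), Ube2l6 (10.4%) and Ube2d2b (1.74%), and 4 probe sets that name Ube2l3 among several symbols were left out. A gene was represented by its brightest passing probe set on chip 430A, which held for 24 genes. Where none passed on 430A, the brightest passing one on chip 430B was used, for the other 6 (Ube2d-ps, Ube2q1, Ube2q2, Ube2ql1, Ube2t and Ube2u).

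Ubiquitin is a small protein that cells attach to other proteins to mark them for breakdown by the proteasome or to change their activity. An E1 enzyme activates ubiquitin, an E2 enzyme carries it on a cysteine, and an E3 ligase brings the loaded E2 to the substrate. The E2 often decides which kind of ubiquitin chain is built, and a few E2 enzymes carry ubiquitin-like proteins such as NEDD8 instead. In heart muscle the pathway is best known from the muscle E3 ligases Fbxo32 (atrogin-1) and Trim63 (MuRF1), which are induced when muscle shrinks and held down by Akt signalling.

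The hearts were from mice labelled male, with both Tet-myrAkt1 and ?MHC-tTA, as the strain field spells it: a tetracycline-controlled, myristoylated and so membrane-bound, active Akt1, and a transactivator named for a myosin heavy chain promoter. Both transgenes were present in all 5 groups, so hearts before induction were the baseline and no transgene-negative hearts were analysed here. The study held 4 hearts taken at 12 weeks of age before any induction and 4 hearts induced for 2 weeks, at 14 weeks. A further 4 hearts were induced for 2 weeks and then repressed for 2 days, at 14 weeks and 2 days. At 18 weeks of age, 3 hearts had been induced for 6 weeks. At 20 weeks, 3 hearts had been induced for 6 weeks and then repressed for 2 weeks. Age rose with the transgene's state, and the effects of the state and of age cannot be told apart. From the group and replicate number in the titles, each heart was taken to have been hybridised to both chips, 36 arrays in all. Values are MAS5 signals, the linear brightness of a probe set. The RNA was from heart tissue with all its cells, in which fewer cells of a type and less RNA per cell cannot be told apart.

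An Akt1 probe set averaged 548 ± 69.7 before induction (SD, n = 4) and 2878 ± 645 after 2 weeks of induction (n = 4), 718 ± 21.8 after 2 days of repression (n = 4), 2365 ± 542 after 6 weeks of induction (n = 3) and 753 ± 107 after 2 weeks of repression (n = 3), which follows the labels. Another Akt1 probe set on chip 430A was lower at 6 weeks of induction than before (log2 change -0.54 ± 0.16 SE, adjusted p = 0.0236, limma). An Akt1 probe set on chip 430B was not called in any comparison. Hearts 3 and 4 before induction had Xist signals of 2518 and 2170, while the other 16 hearts lay between 4.4 and 92.8. Xist is made from the inactive X chromosome of female cells, so the signal in these hearts goes against their male label, and results against this group are given with and without them where that changes a call. The 3' over 5' ratio of Actb probe sets, which grows as RNA is degraded, was 3.71 in heart 3 of the 6-week induction and 0.952 to 1.92 in the other 17 hearts. All 10 cardiac muscle markers were measured, with a summed signal of 146800 to 290400 over the hearts. The summed signal of 8 endothelial markers was 7934 to 9002 before induction and 5220 to 6797 after 6 weeks of induction (4 of 8 lower, all genes 8.14%). That of 8 fibroblast markers was 27420 to 35060 before and 37660 to 51460 after 2 weeks of induction (4 of 8 higher, all genes 3.69%). That of 4 atrial markers was 1805 to 66540 among the hearts before induction alone. Of 10 macrophage and leukocyte markers, 2 were higher after each repression (all genes 5.23% and 7.19%). The part of these differences in the results below was not tested.

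The promoters of the most clearly changed members, taken from RefSeq (GRCm38.p6) as the 250 bases before the gene's start, are shown because Ube2a and Ube2b, close relatives, moved in opposite directions, and because Ube2c is a gene of dividing cells. Capitals mark 3 motifs, looked for on both strands after the windows had been seen: CACGTG (an E-box), CCAAT and TTTGAA (a core of the cell cycle homology region). The windows are chrX:36874045-36874294 on the plus strand for Ube2a, chr11:52000787-52001036 on the minus strand for Ube2b and chr2:164769679-164769928 on the plus strand for Ube2c.
Ube2a: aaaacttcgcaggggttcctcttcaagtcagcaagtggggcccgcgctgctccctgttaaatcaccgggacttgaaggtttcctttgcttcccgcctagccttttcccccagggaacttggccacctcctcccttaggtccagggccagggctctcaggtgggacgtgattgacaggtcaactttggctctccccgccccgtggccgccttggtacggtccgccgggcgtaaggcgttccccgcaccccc
Ube2b: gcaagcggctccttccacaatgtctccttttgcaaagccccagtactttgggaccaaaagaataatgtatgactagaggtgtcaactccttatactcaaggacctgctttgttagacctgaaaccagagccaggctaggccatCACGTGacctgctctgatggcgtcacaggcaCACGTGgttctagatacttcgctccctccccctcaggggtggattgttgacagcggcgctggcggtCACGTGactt
Ube2c: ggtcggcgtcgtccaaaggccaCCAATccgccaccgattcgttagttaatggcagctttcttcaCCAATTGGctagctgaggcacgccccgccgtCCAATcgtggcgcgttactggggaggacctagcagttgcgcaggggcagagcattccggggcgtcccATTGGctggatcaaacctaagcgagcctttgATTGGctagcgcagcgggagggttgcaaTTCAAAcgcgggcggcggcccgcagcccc
The Ube2b window held 3 copies of CACGTG, which begin 107, 76 and 10 bases before the start; 6.02% of the 32851 windows in the table held 1 or more and 0.0609% as many as 3. The Ube2c window held 6 copies of CCAAT in either orientation, of which a pair overlaps as CCAATTGG, and 1 copy of TTTGAA on the other strand, 29 bases before the start. CCAAT was in 33.8% of all windows and at least 6 copies in 0.0578%, and TTTGAA was in 16%. The Ube2a window held none of the 3 motifs. The table lists a second start for Ube2b, further into the gene, whose window held none of them either. Of the 30 members 24 had a window, and CCAAT was found in 6 of these genes, TTTGAA in 3 and CACGTG in 2 (Ube2b and Ube2q1). These are matches of letters and not shown binding sites.

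Across the 7 comparisons, 12 of the 30 members changed in at least 1, by the representative probe set at a limma adjusted p under 0.05 (Benjamini-Hochberg, over all probe sets of a chip). The share of all genes that changed in at least 1 was not counted, so this number has nothing to be set against. After 2 weeks of induction 3 had changed, Ube2a and Ube2c upward and Ube2b downward; over all genes 6.59% had (3.69% higher and 2.9% lower). After 6 weeks of induction 5 had changed against hearts before induction, Ube2a, Ube2c and Ube2r2 upward and Ube2b and Ube2z downward, where 15.7% of all genes had (7.58% higher and 8.14% lower). Between 2 and 6 weeks of induction the 1 member called was Ube2r2, which rose, with 5.17% over all genes (2.35% higher and 2.82% lower).

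Within 2 days of repression 6 members changed against 2-week induced hearts, Ube2b upward and Ube2a, Ube2e1, Ube2f, Ube2n and Ube2v2 downward, where 10.6% of all genes had changed (5.23% higher and 5.36% lower). After 2 weeks of repression 4 changed against 6-week induced hearts, Ube2b, Ube2q2 and Ube2w upward and Ube2d2a downward, where 12.7% of all genes had (7.19% higher and 5.53% lower). Against hearts before induction, 1 member, Ube2c, was higher both after 2 days of repression, where 3.81% of all genes had changed (2% higher and 1.81% lower), and after 2 weeks of repression, where 2.71% had (1.5% higher and 1.21% lower). The share of members called was close to that of all genes except within 2 days of repression, at 6 of 30. That count ran from 3 to 7 in fits without 1 heart and was not tested against the share of all genes. Most of the results below are those of single members. The comparisons share groups of hearts, and their counts are not independent of each other.

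The members' median log2 change was 0.09 at 2 weeks and 0.11 at 6 weeks of induction, against -0.02 and -0.05 over all genes, -0.10 at 2 days of repression (all genes 0.00) and -0.05 at 2 weeks of repression (all genes 0.03). With arrays scaled to a common median instead of a common trimmed mean, the median of all probe sets in the 6-week comparison moved up by 0.15. The split was then 9 members higher and 1 lower in place of 3 and 2. It was 4 and 1 in place of 2 and 1 at 2 weeks of induction, 0 and 5 in place of 1 and 5 at 2 days of repression and 2 and 2 in place of 3 and 1 at 2 weeks of repression. Calls over all probe sets in either direction went from 4361 to 4001 at 6 weeks and from 1658 to 1325 at 2 weeks of induction. They went from 3219 to 3045 at 2 days and from 3605 to 3218 at 2 weeks of repression. Their split into higher and lower was not counted with this scaling. The splits of members, and of the lists below, have no such share to be set against. No member changed differently between the late and the early repression (0 of 30 by limma, background 0.642%; 2 members at an unadjusted p under 0.05).

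**Figure D1:**
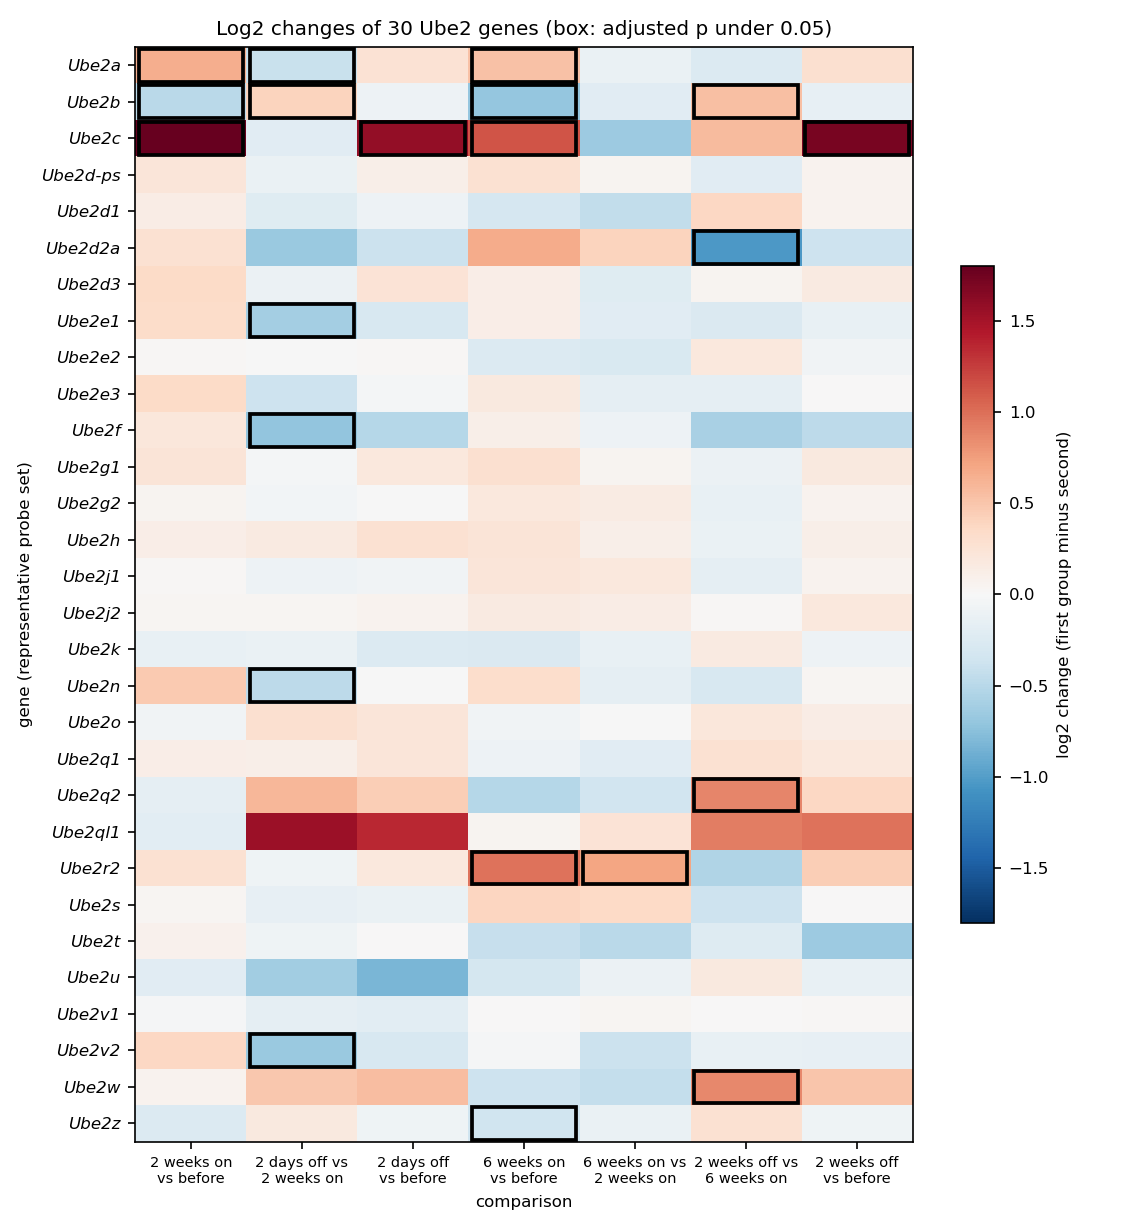
Log2 change of the 30 Ube2 genes (rows) in 7 comparisons (columns) by the representative probe set, with red for higher and blue for lower values in the first-named group and a black box where the limma adjusted p was under 0.05. There are 21 boxes in 12 rows, and Ube2b is blue in both inductions and red in both repressions.

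Ube2a and Ube2b, the mammalian counterparts of yeast Rad6, work with Rad18 in the tolerance of DNA damage and with the Ubr ligases of the N-end rule. Ube2a rose with induction and Ube2b fell, and both moved back with repression. The Ube2a signal was 1714, 1666, 1636 and 1821 before induction and 2758, 2533, 2851 and 2776 after 2 weeks of induction, 1.6-fold higher on average. It was 1930, 2077, 1708 and 2639 after 2 days of repression, 2378, 2546 and 2566 after 6 weeks of induction and 2112, 2079 and 2078 after 2 weeks of repression. Every induced heart lay above every heart before induction, while heart 4 of the 2-day repression stayed among the induced hearts. The log2 change was 0.66 ± 0.11 (SE) at 2 weeks (adjusted p = 0.00104, limma) and 0.53 ± 0.12 at 6 weeks (adjusted p = 0.00393). Ube2a fell by 0.39 ± 0.11 within 2 days of repression (adjusted p = 0.018), a call lost without heart 3 of the 2-week induction or heart 1 or 3 of the 2-day repression (adjusted p 0.0513 to 0.0671). After 2 weeks of repression the difference from 6-week induced hearts was -0.25 ± 0.13 (adjusted p = 0.183). A second Ube2a probe set differed by 0.41 ± 0.15 at 2 weeks (adjusted p = 0.0946) and -0.11 ± 0.16 at 6 weeks (adjusted p = 0.665), and the mean of both gave 0.21 at 6 weeks with an adjusted p of 0.176. Ube2a lies on the X chromosome, and hearts 3 and 4 before induction, those with Xist signal, had the lowest and the highest Ube2a signal of their group.

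Ube2b took the opposite course. Its signal was 3904, 4066, 3932 and 3949 before induction and 2871, 2892, 2647 and 2845 after 2 weeks of induction. It was 3425, 3829, 3615 and 4072 after 2 days of repression, 2277, 2752 and 2301 after 6 weeks of induction and 3623, 3389 and 3730 after 2 weeks of repression. Induced hearts lay below all other hearts without overlap. Ube2b fell by 0.49 ± 0.09 on the log2 scale at 2 weeks (adjusted p = 0.00258, limma) and by 0.69 ± 0.10 at 6 weeks (adjusted p = 0.000105), to 0.616 of its level before induction. It rose by 0.40 ± 0.09 within 2 days of repression (adjusted p = 0.00578) and by 0.55 ± 0.11 over 2 weeks of repression (adjusted p = 0.00174), and was then at -0.15 against hearts before induction (adjusted p = 0.468). The rise within 2 days was 0.28 with an adjusted p of 0.112 when arrays were scaled to a common median, and the rise over 2 weeks had an adjusted p of 0.064 with only those 2 groups in the fit. Of the 3 other Ube2b probe sets, 1 was called once: it rose over 2 weeks of repression by 0.63 ± 0.17 (adjusted p = 0.013), though by 0.46 with an adjusted p of 0.078 without heart 3 of the 6-week induction, and not with arrays scaled to a common median (adjusted p = 0.106). In that probe set the difference at 6 weeks of induction was -0.33 ± 0.16 (adjusted p = 0.134), with overlap between 2438 to 3278 before and 1766 to 2599 induced. The other two gave -0.61 ± 0.24 and -1.15 ± 0.52 there (adjusted p = 0.155 and 0.227).

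Within each heart, the difference between log2 signals of Ube2a and Ube2b shows the shift. It ran from -1.26 to -1.10 before induction, from -0.19 to 0.11 after 2 weeks and from -0.11 to 0.15 after 6 weeks of induction, and from -1.06 to -0.62 and from -0.83 to -0.69 after the early and the late repression. The ranges of induced hearts did not overlap those of any other group, and repressed hearts lay above hearts before induction. Since brightness differs between probe sets, only the change of this difference can be read, not which of the pair is more abundant.

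**Figure D2:**
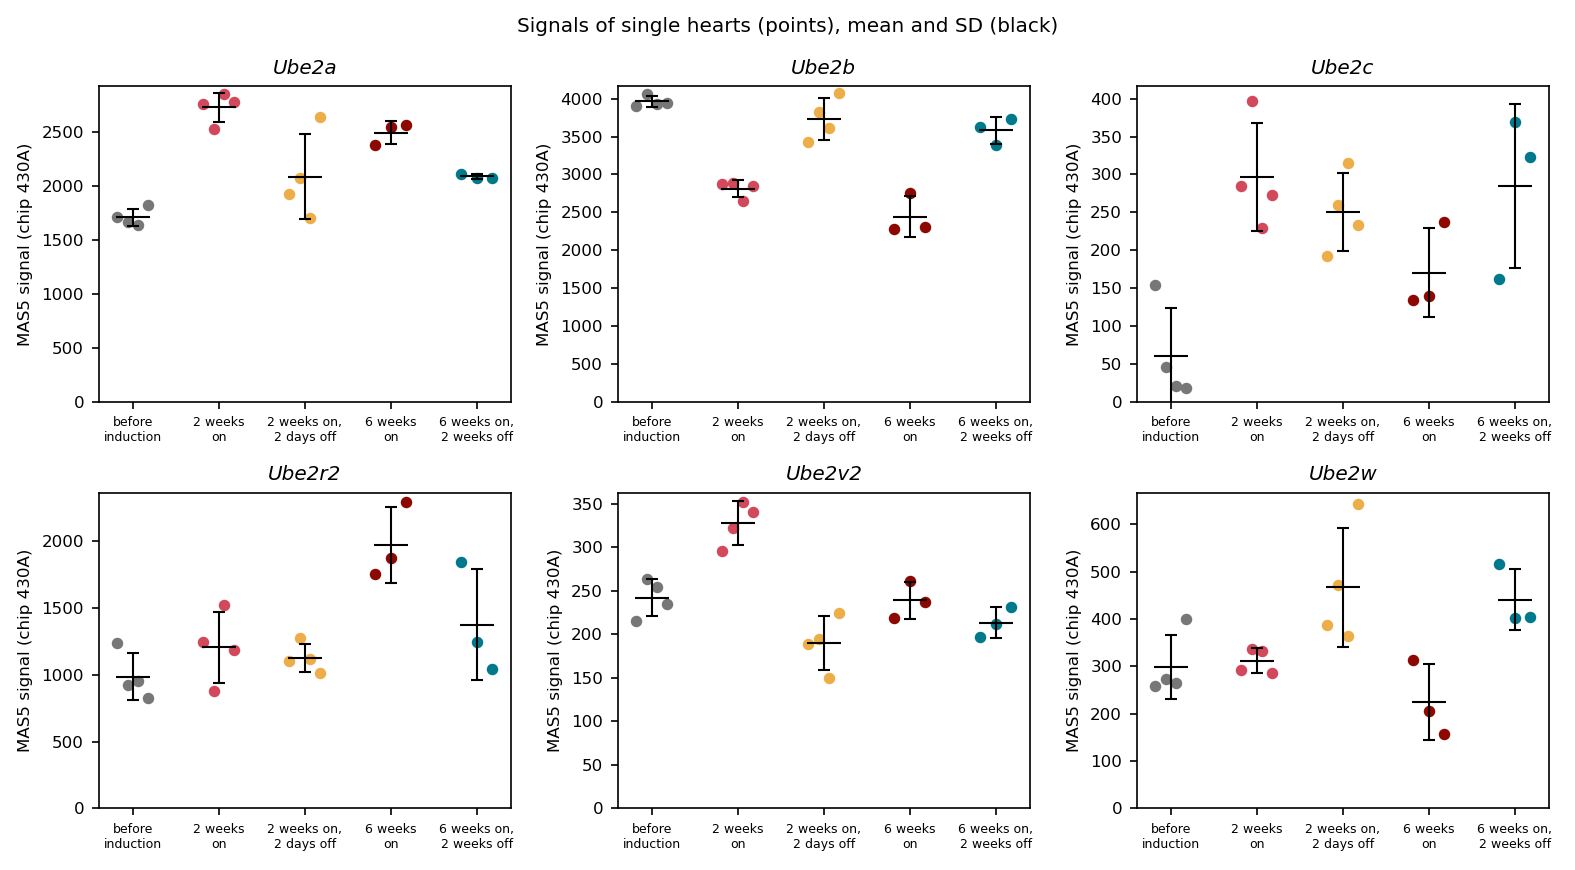
MAS5 signal of each heart (points) with mean and SD (black) for 6 members on chip 430A in the 5 groups; the SD bar of Ube2c before induction runs below 0 and is clipped at the axis. Ube2a is high and Ube2b low in both induced groups, Ube2c is lowest before induction, Ube2r2 is highest after 6 weeks, Ube2v2 after 2 weeks, and Ube2w is higher in the 2-week repressed than in the 6-week induced hearts.

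Ube2c and Ube2s serve the anaphase-promoting complex, the ligase that drives exit from mitosis: Ube2c places the first ubiquitins and Ube2s extends the chain. The Ube2c signal was 153.6, 46.4, 21.3 and 17.9 before induction and 285, 396.7, 230 and 273.4 after 2 weeks of induction. It was 192.5, 260, 315 and 232.8 after 2 days of repression, 134.7, 139.5 and 237.7 after 6 weeks of induction and 162.6, 369.6 and 322.9 after 2 weeks of repression. Ube2c was dim before induction and higher in the other groups, and heart 1 before induction overlapped only with 6-week induced hearts. The log2 changes against hearts before induction were 1.79 ± 0.29 at 2 weeks of induction (adjusted p = 0.000978, limma), 1.59 ± 0.29 at 2 days of repression (adjusted p = 0.00424), 1.13 ± 0.32 at 6 weeks of induction (adjusted p = 0.0169) and 1.70 ± 0.32 at 2 weeks of repression (adjusted p = 0.00577). Of 8 fibroblast markers, 4 were higher in each of these 4 comparisons (all genes 3.69%, 2%, 7.58% and 1.5%). Their part in the change of Ube2c was not tested. The 2 dimmest hearts before induction were those with Xist signal, hearts 3 and 4. The mean of 59.8 before induction is under the brightness threshold of 100.04, which Ube2c passed through the other groups, so the size of its change depends on the offset added before log2 (2.50 and 1.23 at 2 weeks of induction with smaller and larger offsets). Without hearts 3 and 4 before induction, the changes were 1.28, 1.08, 0.62 and 1.20, and the first alone was called (adjusted p = 0.0386, 0.0753, 0.244 and 0.0882). The 6-week call was also lost without heart 3 or 4 before induction alone (0.97 and 0.95, adjusted p = 0.0529 and 0.0546) or without heart 3 of the 6-week induction (0.92, adjusted p = 0.0868). Ube2s, on 1 probe set, ranged from 1565 to 3004 and was not called; its difference at 6 weeks was 0.39 ± 0.17 (adjusted p = 0.109, limma), with all 3 induced hearts, at 2786 to 3004, above the hearts before induction at 1879 to 2652.

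Of 25 measured genes of the anaphase-promoting complex and mitosis, 6 were higher after 2 weeks of induction and 0 lower (all genes 3.69% and 2.9%), 2 were lower within 2 days of repression (all genes 5.36%), and 4 were lower at 6 than at 2 weeks of induction (all genes 2.82%). Without hearts 3 and 4 before induction 4 were higher at 2 weeks. At 2 weeks they included Top2a, a topoisomerase of dividing cells (1.27 ± 0.21, adjusted p = 0.00104, limma), the proliferation antigen Mki67 (1.72 ± 0.30, adjusted p = 0.00156) and the cyclin Ccnb2 (1.78 ± 0.32, adjusted p = 0.00208; 1.52 and 0.0519 without those hearts). Mki67 and Ccnb2 averaged 80.42 and 44.38 before induction, under the brightness threshold of 100.04, which they passed through the other groups. The size of their changes therefore depends on the offset added before log2. Between 2 and 6 weeks Mki67 fell by 1.39 ± 0.33 (adjusted p = 0.0146) and Ccna2 by 0.83 ± 0.18 (adjusted p = 0.00897). Ube2c was not called in that comparison.

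Ube2r2 and Ube2k build chains linked through lysine 48, the signal for the proteasome, and Ube2r2 is a close relative of Cdc34, the partner of the cullin ligases. Ube2r2 was highest after 6 weeks of induction. Its signal was 1239, 924.6, 950 and 828.4 before induction, 1242, 876, 1525 and 1183 after 2 weeks and 1753, 1875 and 2291 after 6 weeks of induction. It was 1104, 1272, 1118 and 1014 after 2 days and 1844, 1243 and 1041 after 2 weeks of repression. The 6-week induced hearts lay above all hearts before induction and all 2-week induced hearts, while heart 1 of the 2-week repression remained within their range. At 6 weeks the log2 change was 0.97 ± 0.19 against hearts before induction (adjusted p = 0.00151, limma), a 2-fold difference, and 0.70 ± 0.19 against 2-week induced hearts (adjusted p = 0.0311). The second call was lost without any 1 of 5 hearts, heart 2 or 4 of the 2-week induction or any 6-week induced heart (changes of 0.57 to 0.78, adjusted p 0.0505 to 0.102), and with arrays scaled to a common median (0.81, adjusted p = 0.0575). The return over 2 weeks of repression was -0.54 ± 0.20 (adjusted p = 0.0708). The same probe set on chip 430B gave 1.16 ± 0.23 at 6 weeks (adjusted p = 0.00392), from 918, 585.8, 733.4 and 849.1 before induction to 1619, 1341 and 2342. A different Ube2r2 probe set on that chip was not called in any comparison. Cdc34 itself, outside the symbol rule, rose by 0.44 ± 0.12 at 6 weeks (adjusted p = 0.0141), and by 0.37 with an adjusted p of 0.118 without hearts 3 and 4 before induction. Ube2k ranged from 1123 to 1856 and was not called, with its smallest adjusted p at 6 weeks (-0.26 ± 0.16, adjusted p = 0.254).

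**Figure D3:**
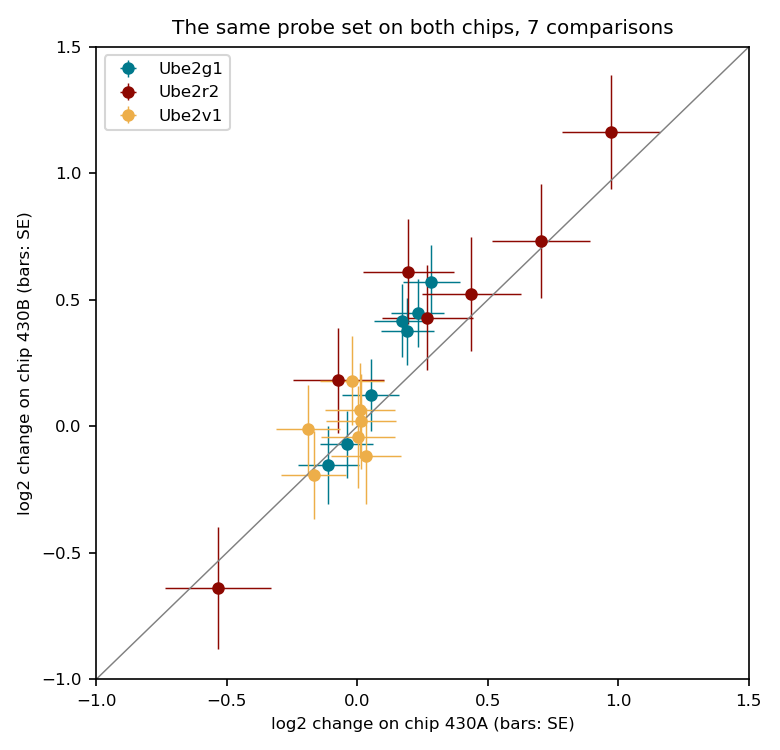
Log2 change on chip 430A (horizontal) and chip 430B (vertical) of the 3 probe sets that are on both chips, those of Ube2g1, Ube2r2 and Ube2v1, in 7 comparisons, with bars for the SE. Points near the diagonal gave like values on both chips; the largest change, of Ube2r2 at 6 weeks of induction, was 0.97 on chip 430A and 1.16 on chip 430B.

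Ube2n, Ube2v1 and Ube2v2 together make chains linked through lysine 63, used in signalling and DNA repair: Ube2n (Ubc13) is the enzyme, and the Ube2v proteins are partners without a catalytic cysteine. Ube2v2 and Ube2n both fell within 2 days of repression. The Ube2v2 signal was 215, 263.1, 254.6 and 234.8 before induction and 295.1, 322.2, 352.4 and 340.8 after 2 weeks of induction. It was 188.8, 194.8, 149.5 and 224.7 after 2 days of repression, 218.7, 261.5 and 236.5 after 6 weeks of induction and 197, 211.7 and 231.6 after 2 weeks of repression. The 2-week induced hearts lay above all other hearts. Ube2v2 fell by 0.66 ± 0.13 within 2 days (adjusted p = 0.0019, limma), to 0.578 of its induced level; its difference at 2 weeks of induction was 0.37 ± 0.13 (adjusted p = 0.0799). The 2 other Ube2v2 probe sets did not show it (0.05 ± 0.20 and -0.13 ± 0.25 at 2 days, adjusted p = 0.895 and 0.846), and the mean of the probe sets on chip 430A gave -0.31 with an adjusted p of 0.135.

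The Ube2n signal was 662.3, 865.6, 761.2 and 1173 before induction, 1127, 1306, 1163 and 1202 after 2 weeks and 1179, 1210 and 852.5 after 6 weeks of induction. It was 799.6, 850.1, 866.7 and 870.7 after 2 days and 693.2, 878.5 and 1064 after 2 weeks of repression. All 2-day repressed hearts lay below all 2-week induced hearts. Ube2n fell by 0.48 ± 0.16 in that comparison (adjusted p = 0.0407, limma), a call that was lost when any 1 of the 8 hearts was left out (changes of -0.51 to -0.44, adjusted p 0.0608 to 0.0947). A probe set of Ube2n on chip 430B gave -0.41 ± 0.18 (adjusted p = 0.248). Ube2v1 ranged from 901.5 to 1505 and was not called on this probe set. Another Ube2v1 probe set on chip 430B rose at 6 weeks of induction by 0.64 ± 0.16 (adjusted p = 0.0207), but its change was 0.52 with an adjusted p of 0.0953 without heart 3 of that group, and the call was also lost without heart 2, 3 or 4 before induction, without both hearts with Xist signal (0.53, adjusted p = 0.176) and with quantile normalization (adjusted p = 0.0678).

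Ube2f carries NEDD8 to cullins, the scaffolds of the largest group of E3 ligases. It fell within 2 days of repression on 2 probe sets. The representative signal was 1225, 1379, 1295 and 669.5 before induction, 941.8, 1653, 1203 and 1392 after 2 weeks and 1349, 1303 and 964.9 after 6 weeks of induction. It was 763.1, 797.7, 672.9 and 810.1 after 2 days and 782.1, 741.9 and 809.5 after 2 weeks of repression. Repressed hearts lay together, below every induced heart, and heart 4 before induction was as low as they were. The change was -0.71 ± 0.19 within 2 days (adjusted p = 0.0149, limma) and -0.59 ± 0.22 over 2 weeks of repression (adjusted p = 0.0685).

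A second Ube2f probe set read 756.4, 714.2, 441.9 and 486.1 before induction, 941.7, 853.9, 895.6 and 876.7 after 2 weeks and 938.9, 867.4 and 1330 after 6 weeks of induction. It read 557.4, 557.8, 462.5 and 646.4 after 2 days and 575.2, 496.3 and 668.9 after 2 weeks of repression. All induced hearts lay above all other hearts on this probe set. It rose at 2 weeks (0.57 ± 0.17, adjusted p = 0.0383, limma) and 6 weeks of induction (0.76 ± 0.18, adjusted p = 0.0055) and fell by 0.64 ± 0.17 within 2 days (adjusted p = 0.0115) and by 0.78 ± 0.19 over 2 weeks of repression (adjusted p = 0.00816). The lowest hearts before induction were hearts 3 and 4, and without both the changes at 2 and 6 weeks were 0.26 and 0.46 (adjusted p = 0.518 and 0.116). Without heart 3 of the 6-week induction the late fall was -0.61 (adjusted p = 0.0512), and the rise at 2 weeks of induction was lost without any 1 of 7 hearts (heart 3 or 4 before induction, any 2-week induced heart, or heart 2 of the 2-day repression). The other 4 Ube2f probe sets were not called. Of 7 measured E1 enzymes and subunits, 1 was higher at 2 weeks of induction (all genes 3.69%) and 2 were lower within 2 days of repression (all genes 5.36%). Uba3, the catalytic subunit of the E1 enzyme for NEDD8, rose at 2 weeks of induction (0.53 ± 0.11, adjusted p = 0.00595) and fell by 0.94 ± 0.11 within 2 days of repression (adjusted p = 3.96e-05), and its partner Nae1 fell by 0.45 ± 0.11 in the latter comparison (adjusted p = 0.00985). Without hearts 3 and 4 before induction the rise of Uba3 was 0.51 with an adjusted p of 0.0789. At 6 weeks of induction Nae1 was lower than before (-0.41 ± 0.12, adjusted p = 0.0202, all genes 8.14% lower). Both Nae1 and Uba3 were lower than at 2 weeks (-0.49 ± 0.12 and -0.45 ± 0.12, adjusted p = 0.0204 and 0.0319, all genes 2.82% lower). With arrays scaled to a common median none of these falls at 6 weeks was called.

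The UBE2E enzymes carry an N-terminal extension before the core that all E2 enzymes share. Ube2e1 signals were 819.9, 861.1, 885.7 and 744.1 before induction, 738.4, 1065, 1228 and 1237 after 2 weeks and 729.8, 1065 and 947.5 after 6 weeks of induction. They were 791.6, 691, 636.3 and 573.5 after 2 days and 908.5, 775.7 and 584.4 after 2 weeks of repression. Heart 1 of each induced group was below the lowest heart before induction, and the 2-week induced and 2-day repressed hearts overlapped through it. Ube2e1 fell by 0.61 ± 0.17 within 2 days (adjusted p = 0.0158, limma), a call lost without heart 3 or 4 of the 2-week induction or heart 4 of the 2-day repression (changes of -0.54 to -0.53, adjusted p 0.0529 to 0.0553). Another Ube2e1 probe set, on chip 430B, was not called in any comparison. Ube2e2 ranged from 155.2 to 318.4 and Ube2e3 from 1456 to 3302, and neither was called. The Ube2e3 difference at 2 days was -0.38 ± 0.17 (adjusted p = 0.14), with a 95% interval of -0.74 to -0.01.

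The UBE2D enzymes are the least selective E2 enzymes and work with many RING and HECT ligases. In Ube2d2a and Ube2d3 the probe sets of 1 gene gave different answers. The representative Ube2d2a probe set read 1085, 2436, 2184 and 1158 before induction, 1644, 1544, 2607 and 2217 after 2 weeks and 1987, 2402 and 3651 after 6 weeks of induction. It read 1671, 936.7, 1042 and 1351 after 2 days and 1320, 1556 and 915.6 after 2 weeks of repression. The hearts before induction were widely spread, and those after 2 weeks of repression lay below the 6-week induced ones. Ube2d2a fell by 1.04 ± 0.31 in that comparison (adjusted p = 0.0233, limma). Without heart 3 of the 6-week induction the change was -0.80 (adjusted p = 0.122), without heart 3 of the 2-week repression -0.83 (adjusted p = 0.11), and over the mean of all its probe sets on the chip -0.27 (adjusted p = 0.205).

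At 6 weeks of induction a second Ube2d2a probe set rose by 0.49 ± 0.14 (adjusted p = 0.0179, limma), from 959, 1426, 1279 and 1112 to 1674, 1679 and 1674. A dimmer one fell by 0.54 ± 0.16 (adjusted p = 0.0234), from 229.5, 333.4, 281.3 and 315.9 to 215.4, 161.9 and 172.5. In both the groups were free of overlap, so that within the gene 1 probe set rose and 1 fell. Without heart 3 of the 6-week induction the rise was still called (adjusted p = 0.0421) and the fall was -0.51 (adjusted p = 0.0718). The fall was also lost without heart 2 or 4 before induction or heart 2 of the 6-week induction, with arrays scaled to a common median (adjusted p = 0.112) and with quantile normalization (adjusted p = 0.0863). Without both hearts with Xist signal neither was called (0.50 and -0.50, adjusted p = 0.0758 and 0.132). The dimmer probe set rose by 0.56 ± 0.15 within 2 days of repression (adjusted p = 0.0144), a call lost without heart 1 of the repressed group.

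The brightest Ube2d3 probe set ranged from 3630 to 7695 and was not called in any comparison (0.12 ± 0.19 at 6 weeks of induction, adjusted p = 0.692, limma). Of its 6 other probe sets 5 fell at 6 weeks, by 0.56 to 1.00 on the log2 scale, and 3 of these rose over 2 weeks of repression, by 0.96 to 1.43. For 1 of the 3, the signal was 1040, 1289, 1260 and 1453 before induction, 828.6, 1058 and 556.7 after 6 weeks of induction and 1767, 1485 and 1671 after 2 weeks of repression. Heart 3 of the 6-week induction, with the high Actb ratio, was the lowest on each of the 5. Without it 1 of the 5 was still called lower (-0.43, adjusted p = 0.0144, limma) and the others were between -0.67 and -0.37 (adjusted p 0.108 to 0.331), while the 3 rises over repression stayed called at 0.72 to 0.95. With arrays scaled to a common median none of the 5 falls was called (adjusted p 0.0539 to 0.127), and with quantile normalization 1 was lost (adjusted p = 0.0515). Without both hearts with Xist signal only 1 of the 5 falls was still called (adjusted p = 0.0127, the others 0.0529 to 0.153). The 3 rises stayed called in each of these settings. Within 2 days of repression 2 of these probe sets also rose (0.92 ± 0.28, adjusted p = 0.0294, and 0.71 ± 0.17, adjusted p = 0.00833), the first of which was lost without any 1 of 5 of the 8 hearts compared and with arrays scaled to a common median (adjusted p = 0.0556). Ube2d1 ranged from 533.4 to 1224 and was not called. Ube2d-ps, which the RefSeq table lists as a noncoding RNA and whose reads can come from its near relatives, ranged from 369.3 to 860.2 and was not called either.

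**Figure D4:**
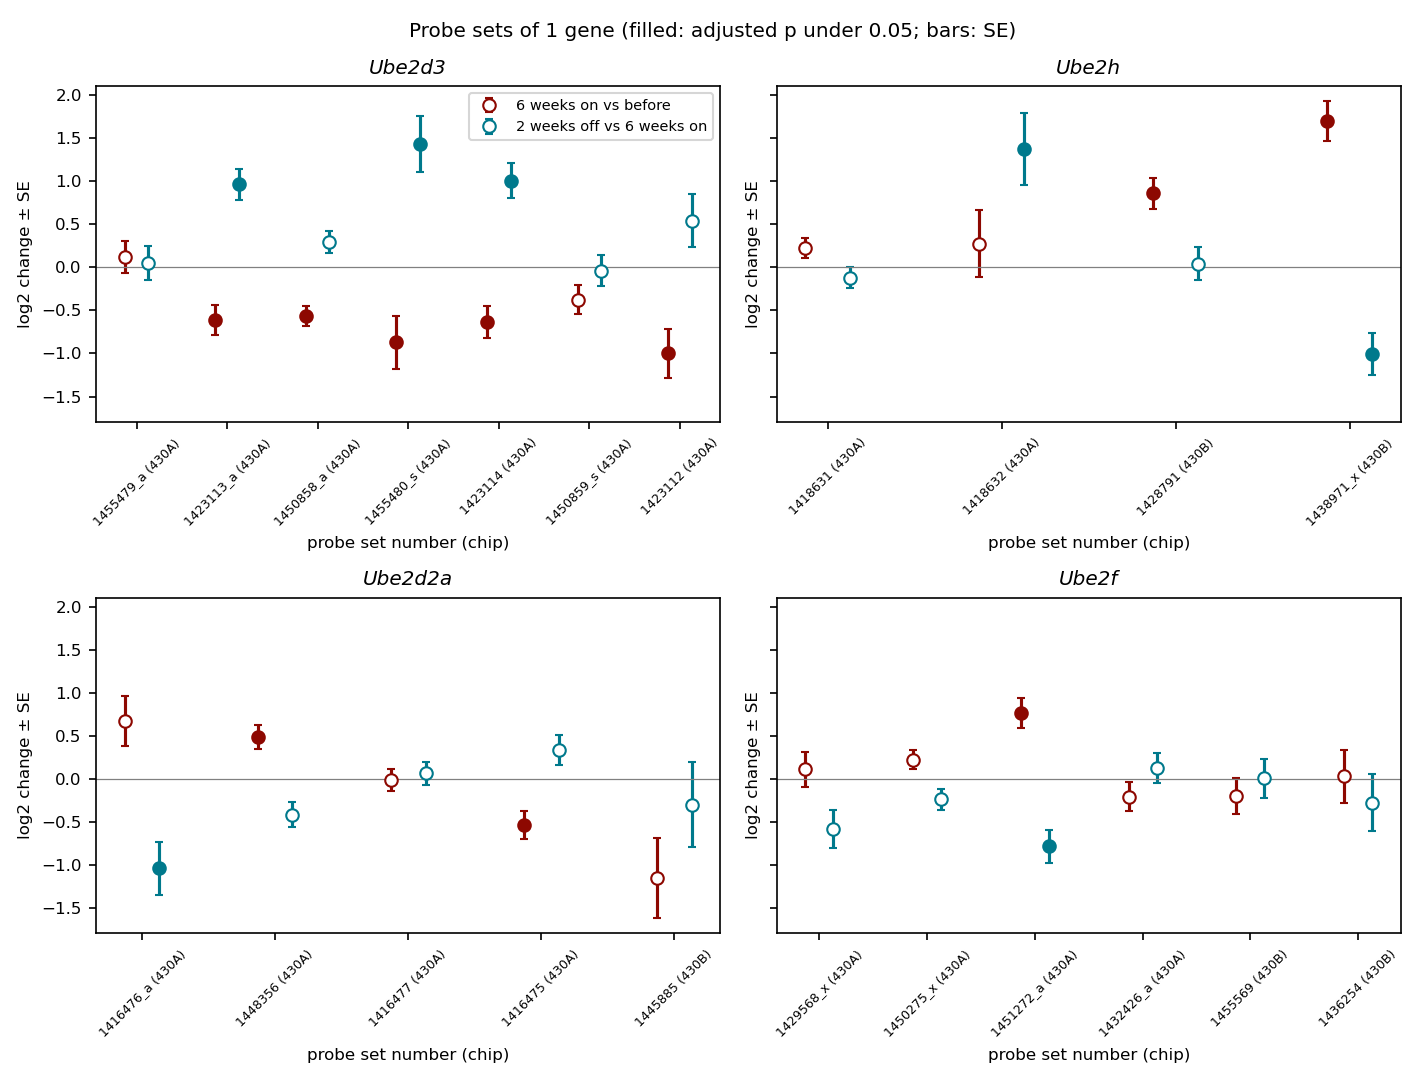
Log2 change with SE for each probe set of Ube2d3, Ube2h, Ube2d2a and Ube2f after 6 weeks of induction against before (dark red) and after 2 weeks of repression against 6 weeks of induction (blue-green); filled points have a limma adjusted p under 0.05. The axis numbers name the probe sets. Filled points of opposite sign in the same comparison occur in Ube2d2a at 6 weeks of induction (0.49 and -0.54) and in Ube2h over repression (1.38 and -1.01).

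Ube2w attaches ubiquitin to the N-terminus of proteins, and Ube2t works with Fancl in the repair of DNA crosslinks. The Ube2w signal was 258.4, 274.3, 264.9 and 400.2 before induction, 292, 335.8, 333.3 and 286.7 after 2 weeks and 313.1, 205.7 and 156.5 after 6 weeks of induction. It was 387.6, 472.1, 365.2 and 642.7 after 2 days and 516.2, 403.3 and 404.6 after 2 weeks of repression. All repressed hearts lay above all induced hearts. Ube2w rose by 0.87 ± 0.21 over 2 weeks of repression (adjusted p = 0.00874, limma), 1.96-fold, and by 0.68 with an adjusted p of 0.0547 without heart 3 of the 6-week induction. The mean of its probe sets on the chip gave 0.24 (adjusted p = 0.31). Its difference within 2 days was 0.49 ± 0.19 (adjusted p = 0.0754). A second, dimmer probe set went the other way, with rises at 2 weeks (0.66 ± 0.17, adjusted p = 0.0229) and 6 weeks of induction (0.60 ± 0.19, adjusted p = 0.0293), the latter at 0.39 (adjusted p = 0.183) without heart 3 of that group. Both were lost without heart 2 or 3 before induction, and without both hearts with Xist signal (adjusted p = 0.0923 and 0.0734), and the first also without heart 2 or 3 of its own group. Another, on chip 430B, was lower after 2 weeks of repression than before induction (-1.79 ± 0.29, adjusted p = 0.00375). Ube2t, between 22.98 and 169.3, was not called, while Fancl fell by 0.68 ± 0.14 at 6 weeks of induction (adjusted p = 0.00296).

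The remaining members are large or unusual E2 enzymes. Ube2z is charged by the E1 enzyme Uba6 instead of Uba1. Its signal was 929.8, 1073, 1078 and 1065 before induction, 780.3, 913.6, 822 and 954.9 after 2 weeks and 920, 782.2 and 700.9 after 6 weeks of induction. It was 958.4, 1020, 900.4 and 1057 after 2 days and 902.9, 930.4 and 1106 after 2 weeks of repression. The 6-week induced hearts lay below those before induction, and Ube2z fell by 0.36 ± 0.12 (adjusted p = 0.0416, limma). The call was lost in 8 of 18 fits without 1 heart, with adjusted p-values up to 0.162 (without heart 3 of the 6-week induction, at -0.27). It was also lost without both hearts with Xist signal (-0.31, adjusted p = 0.207). The change was -0.16 with an adjusted p of 0.409 when arrays were scaled to a common median. Another Ube2z probe set, on chip 430B, was not called in any comparison.

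Ube2q2, with its relatives Ube2q1 and Ube2ql1, has a long N-terminal part. Ube2q2 signals on chip 430B were 271.1, 191.1, 245 and 239.3 before induction, 121.2, 303.1, 246.8 and 204.5 after 2 weeks and 181.7, 171.7 and 134 after 6 weeks of induction. They were 351.3, 335, 297.9 and 309.8 after 2 days and 387.3, 261 and 289.2 after 2 weeks of repression. The 2-week repressed hearts lay above the 6-week induced ones. Ube2q2 rose by 0.89 ± 0.24 between these groups (adjusted p = 0.043, limma); leaving out any 1 of 13 hearts lost the call, with adjusted p-values of 0.0501 to 0.162 and changes of 0.73 to 1.00. Ube2ql1 read 135.1, 25.65, 35.64 and 33.29 before induction and 22.73, 103.7, 35.45 and 24.77 after 2 weeks of induction. It read 142, 160.8, 98.07 and 163.4 after 2 days of repression, 63.4, 96.2 and 15.85 after 6 weeks of induction and 128.4, 73.79 and 117.2 after 2 weeks of repression. Heart 1 before induction and heart 2 of the 2-week induction lay among the 2-day repressed hearts, and the difference within 2 days was 1.54 ± 0.45 (adjusted p = 0.0806, limma). The summed atrial markers ranged from 2331 to 15680 in the 2-week induced and from 4392 to 42570 in the 2-day repressed hearts, and their part in it was not tested. The representative probe set of Ube2q1 was not called; another was lower at 6 than at 2 weeks of induction (-0.58 ± 0.15, adjusted p = 0.0491), a call lost without any 1 of 15 hearts (adjusted p = 0.128 without heart 3 of the 6-week induction).

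Ube2h works with the CTLH ligase complex and is abundant in maturing red blood cells. Its brightest probe set, from 1113 to 1724, was not called, but 3 others were. On chip 430B 1 probe set read 701.7, 395.5, 592.4 and 600.6 before induction, 1328, 1154, 1450 and 1183 after 2 weeks and 1700, 1423 and 2603 after 6 weeks of induction. It read 880.8, 945.2, 787.7 and 865.4 after 2 days and 1396, 644.9 and 844.3 after 2 weeks of repression. Induced hearts were above all hearts before induction, and this probe set rose by 1.17 ± 0.21 at 2 weeks (adjusted p = 0.00659, limma) and by 1.70 ± 0.23 at 6 weeks (adjusted p = 0.000181) and fell by 1.01 ± 0.25 over 2 weeks of repression (adjusted p = 0.0252). The fall was -0.76 with an adjusted p of 0.131 without heart 3 of the 6-week induction, and was also lost without heart 2 or 3 of the 2-week repression and with arrays scaled to a common median (adjusted p = 0.0708).

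A dim Ube2h probe set on chip 430A went the other way over repression. It read 170.3, 44.1, 119.1 and 76.3 before induction, 51.4, 145.8, 189.3 and 187.7 after 2 weeks and 154.9, 272.2 and 31.6 after 6 weeks of induction. It read 434.9, 472.2, 322.8 and 511.5 after 2 days and 455, 271.1 and 531.2 after 2 weeks of repression. The 6-week induced and 2-week repressed hearts met at 272.2 and 271.1. This probe set rose within 2 days (1.39 ± 0.36, adjusted p = 0.0121, limma) and over 2 weeks (1.38 ± 0.42, adjusted p = 0.0265), the second at 0.82 with an adjusted p of 0.169 without heart 3 of the 6-week induction and also lost without heart 1 or 3 of the 2-week repression and with quantile normalization (adjusted p = 0.0541). The last Ube2h probe set, on chip 430B, was higher than before induction at 6 weeks of induction (0.86 ± 0.18, adjusted p = 0.00621), 2 days of repression (1.15 ± 0.17, adjusted p = 0.00104) and 2 weeks of repression (0.90 ± 0.18, adjusted p = 0.0141), the last of which was lost without heart 3 of that group and without both hearts with Xist signal (adjusted p = 0.0579). Of 8 listed erythroid markers 2 were measured, with a summed signal of 823 to 1527 before induction and 314 to 621 after 6 weeks. At 6 weeks 1 of them was called lower (all genes 8.14%). The part of red blood cells in the Ube2h signals was not tested. Ube2o, an E2 and E3 enzyme in 1 protein, ranged from 370.9 to 606.2, and the dim Ube2u from 7.06 to 76.9; neither was called.

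Ube2g1, Ube2g2, Ube2j1 and Ube2j2 serve the breakdown of proteins drawn out of the endoplasmic reticulum, and Ube2j1 and Ube2j2 are anchored in its membrane. None was called by its representative probe set. The Ube2g1 signal was 2655, 2567, 2151 and 2553 before induction, 2836, 2672, 2891 and 3290 after 2 weeks and 3093, 3111 and 2867 after 6 weeks of induction. It was 2566, 3053, 2626 and 3129 after 2 days and 2712, 2802 and 2871 after 2 weeks of repression. Induced hearts lay above hearts before induction without overlap, and the difference at 6 weeks was 0.28 ± 0.11 (adjusted p = 0.072, limma). The same probe set on chip 430B rose there by 0.57 ± 0.14 (adjusted p = 0.0212), and was at 0.55 with an adjusted p of 0.0572 without heart 3 of the 6-week induction; the call was also lost without heart 2 of that group or heart 2 or 3 before induction, without both hearts with Xist signal (adjusted p = 0.128) and with quantile normalization (adjusted p = 0.222). Ube2g2 ranged from 1107 to 1983, Ube2j1 from 470.9 to 692.7 and Ube2j2 from 916.8 to 1313. A dim second Ube2g2 probe set averaged 94.5, 53.9 and 31.0 before and after 2 and 6 weeks of induction, under the threshold of 100.04, and 232.2 and 180.2 after 2 days and 2 weeks of repression, through which it passed. Its rise was called in both repressions (adjusted p = 0.0059 and 0.0151), with a size that depends on the offset, the latter call being lost without heart 3 of the 6-week induction (adjusted p = 0.0806) or heart 3 of the 2-week repression.

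Over all 73 probe sets, 6 were called at 2 weeks of induction (5 higher, 1 lower), against 5.01% of the 33084 probe sets tested, and 19 at 6 weeks (11 higher, 8 lower), against 13.2%. Between 2 and 6 weeks 3 were called, against 4.06%. Repression gave 13 calls within 2 days (7 higher, 6 lower), against 9.73%, and 12 over 2 weeks (9 higher, 3 lower), against 10.9%. Repressed hearts differed from those before induction in 3 probe sets at 2 days (3.23% of all) and 4 at 2 weeks (2.57%), and the late from the early repression in 0 by limma (0.469%). The calls fell in 18 genes with at least 1 probe set called in any of the 7 comparisons. The 12 without were Ube2d-ps, Ube2d1, Ube2e2, Ube2e3, Ube2j1, Ube2j2, Ube2k, Ube2o, Ube2ql1, Ube2s, Ube2t and Ube2u. The share of all genes with any probe set called in the 7 comparisons was not counted. Over the 18 hearts, the 3 probe sets on both chips correlated between chips at r = 0.48 to 0.84, while 84 pairs of different probe sets of 1 gene had a median r of 0.23, and 25 of them were below 0. The hearts, groups and scaling are shared in each pair, so these r values are descriptions. Of 22 calls against hearts before induction by probe sets other than the representative ones, 15 were lost without both hearts with Xist signal. Calls over all probe sets fell in this setting too, from 1658 to 524 at 2 weeks and from 4361 to 2115 at 6 weeks of induction. Against the same hearts they fell from 1069 to 509 at 2 days and from 851 to 276 at 2 weeks of repression. Which transcript ends or isoforms the probe sets read was not analysed here.

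The proteasome breaks down the marked proteins. Of 37 measured subunits, 9 were higher and 0 lower at 2 weeks of induction (all genes 3.69% and 2.9%), with a median log2 change of 0.24, and 14 were higher and 2 lower at 6 weeks (all genes 7.58% and 8.14%), with a median of 0.25. Within 2 days of repression 14 were lower and 0 higher (all genes 5.36% and 5.23%; median -0.19), and over 2 weeks of repression 9 were lower and 2 higher (all genes 5.53% and 7.19%; median -0.10). The other subunits were not called. Psmd14, a deubiquitinase in the proteasome lid, rose by 0.74 ± 0.10 at 2 weeks (adjusted p = 0.000158, limma) and fell by 0.75 ± 0.10 within 2 days of repression (adjusted p = 0.000121). Psme1, of the activator cap, fell by 0.91 ± 0.13 at 6 weeks (adjusted p = 0.000102). The medians over all genes were -0.02, -0.05, 0.00 and 0.03. Without hearts 3 and 4 before induction, 2 subunits were higher at 2 weeks and 8 higher and 1 lower at 6 weeks of induction. Calls over all probe sets also fell in this setting, as given above. This setting was added, as were the others given for these lists, after the data were seen. Within 2 days of repression 14 were lower in each of the 4 settings run, with 0 to 2 higher. The settings that left out hearts took none from the groups compared here, so in them only the shared spread could move.

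Of 23 measured E3 ligases of striated muscle, 3 were lower at 2 weeks and 7 at 6 weeks of induction with 0 higher (all genes 2.9% and 8.14% lower). Within 2 days of repression 3 were higher and 1 lower (all genes 5.23% and 5.36%), and over 2 weeks 6 were higher (all genes 7.19%). At 2 weeks Fbxo32 fell by 1.62 ± 0.22 (adjusted p = 0.000129, limma) and Asb14, a cullin adaptor, by 1.55 ± 0.14 (adjusted p = 1.22e-06), and within 2 days of repression they rose by 1.88 ± 0.22 and 1.63 ± 0.14 (adjusted p = 2.4e-05 and 6.23e-07). Trim63 rose by 0.88 ± 0.16 within 2 days (adjusted p = 0.0037) and by 1.26 ± 0.18 over 2 weeks of repression (adjusted p = 0.000423). It was not among the 3 ligases lower at 2 weeks of induction. The response of Fbxo32 to the late repression was smaller than to the early one (difference in log2 change -1.41 ± 0.33, adjusted p = 0.0475). Over all genes 0.642% differed there. Of 30 measured ligases that partner named E2 enzymes, 5 were lower at 6 weeks of induction and 0 higher, where 15.7% of all genes had changed (8.14% lower), so the number called was near that of all genes. Among them was Ubr1, a partner of Ube2a and Ube2b (-0.62 ± 0.15, adjusted p = 0.00766; -0.44 and 0.0744 with a common median). With arrays scaled to a common median, 2 muscle ligases were higher and 2 lower at 6 weeks, and 2 partner ligases higher and 1 lower. Without hearts 3 and 4 before induction, 3 of each list were lower at 6 weeks.

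Of 38 deubiquitinases, which remove ubiquitin, 5 were higher and 2 lower at 6 weeks of induction and 3 higher and 5 lower over 2 weeks of repression, where 15.7% and 12.7% of all genes had changed. The first count was near the share of all genes. With arrays scaled to a common median 7 were higher and 0 lower, and 2 higher and 6 lower. Usp19 rose by 0.94 ± 0.12 at 6 weeks (adjusted p = 4.7e-05, limma) and fell by 0.76 ± 0.13 over the repression (adjusted p = 0.000876). Among 7 E2 enzymes and relatives under other symbols, Aktip, a variant without catalytic cysteine, fell by 0.70 ± 0.16 at 2 weeks (adjusted p = 0.00867) and by 1.00 ± 0.17 at 6 weeks (adjusted p = 0.000495), and Ufc1, the E2 enzyme for Ufm1, rose by 0.53 ± 0.15 and 0.57 ± 0.16 (adjusted p = 0.0317 and 0.0163). Of the 7, 0 were called against induced hearts within 2 days or over 2 weeks of repression (all genes 10.6% and 12.7%). Without hearts 3 and 4 before induction the 6-week fall of Aktip alone was called, with Aktip at -0.61 at 2 weeks (adjusted p = 0.117) and Ufc1 at 0.60 and 0.64 (adjusted p = 0.111 and 0.0507). Among 5 measured ubiquitin and ubiquitin-like proteins, Ufm1 itself rose at 2 weeks (0.54 ± 0.16, adjusted p = 0.0453; 0.58 and 0.102 without those hearts) and fell by 0.67 ± 0.16 within 2 days of repression (adjusted p = 0.00815). Of 19 measured interferon-induced genes, to which the dim Ube2l6 belongs by function, 1 was lower within 2 days of repression (all genes 5.36%). Another, higher over 2 weeks of repression, was called in none of the 4 other settings run.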

How the data were processed

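Affymetrix chips 430A and 430B were each hybridised with RNA from 18 mouse hearts. Per the labels, RNA was isolated with the Ultraspec(TM)-II system and labelled with biotin by standard Affymetrix procedures. The deposited values are intensity values, MAS5 signals per the submitters' processing notes; no version is named in the sources used here. All arrays of a chip had the same 2% trimmed mean (500.2 for 430A and 122.5 for 430B), so signals were used as deposited. No batch is named in the sources used here.

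Gene symbols came from the platform annotation. Probe sets under 20% of the trimmed mean were left out, which kept 15565 and 17519. An offset of 10% of the trimmed mean was added before log2, so changes of dim probe sets are understated. Each chip was fitted with limma 3.58.1 (R 4.3.3; lmFit, eBayes with a trend), 1 mean per group, all 18 arrays sharing 1 spread. Benjamini-Hochberg adjustment ran within a chip. SDs are of signals, SEs from the model. The labels do not say whether replicates share a litter, and p-values then reflect only how far these hearts spread. The script was tested on simulated data.

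Members and lists were chosen with earlier results of these data known. Every member is named. Heart-by-heart values are given for the 14 with the smallest adjusted p and for their probe sets called in the opposite direction; those of other probe sets were added after their values were seen. From each list at most 3 called genes per comparison, by adjusted p, are named, beside Akt1. The alternatives were other offsets, filters, normalizations, groups in the fit, a block for replicate numbers, the mean of a gene's probe sets, eBayes without a trend, and leaving out hearts; those for the gene lists were added after the data were seen. Replicate numbers did not pair the hearts: same-numbered hearts of different groups had a median correlation of deviations of -0.02 on chip 430A. Protein sequences were not used here.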

Additional observations from a re-analysis of the deposited data

Results flagged for a closer look

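Of 42 groups of 4 hearts tested for a heart far from the others, 4 held one; chance flags about 1 in 20. Before induction, heart 4 had a Ube2w signal of 400.2, with the others at 258.4 to 274.3, and heart 1 a Ube2z signal of 929.8, with the others at 1065 to 1078. Ube2ql1 stood out in 2 hearts, heart 1 before induction at 135.1 (others 25.65 to 35.64) and heart 2 of the 2-week induction at 103.7 (others 22.73 to 35.45). The Ube2z heart lies on the side of the induced hearts, and the Ube2w and Ube2ql1 hearts before induction lie at the level of repressed hearts.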

How the results depend on the processing

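Of 21 called changes of members, 6 were called under every one of 11 alternatives and 18 fits without 1 heart that kept the gene, those of Ube2a, Ube2b and Ube2c at 2 weeks of induction, Ube2f at 2 days of repression, and Ube2b and Ube2r2 at 6 weeks against before induction; 0 reversed. Of 39 called changes of other probe sets, 17 were called without each heart in turn and 0 reversed under the settings run. The counts of members called went as follows; the cause was not tested. With arrays scaled to a common median they were 5 at 2 weeks of induction, 10 at 6 weeks against before and 0 against 2 weeks. With a filter at 50% they were 0 for 2 days and 0 for 2 weeks of repression against before, where the lone call, Ube2c, lies under the filter, and with gene means 2 and 2. With only the compared groups in the fit they were 3 at 6 weeks, 0 against 2 weeks, 0 over 2 weeks of repression and 0 against before. The replicate block gave 0 at 6 against 2 weeks of induction and moved no other count of calls by over 1.5 times. Without both hearts with Xist signal the counts were 3 at 6 weeks and 0 for 2 weeks of repression against before, and for 2 days of repression 1, a lower Ube2f in place of Ube2c. Without 1 heart they ran from 3 to 4 at 2 weeks, 3 to 7 at 2 days of repression, 1 to 3 for it against before, 3 to 5 at 6 weeks, 0 to 2 against 2 weeks, 1 to 5 over 2 weeks of repression and 1 to 2 for it against before. The late and early repression differed in 0 members throughout. With 3 or 4 hearts a group, the number of arrays limits the precision, most of all for the dim Ube2t and Ube2ql1, whose SEs reached 0.54 and 0.52 in the 7 comparisons.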
